A study of Mus musculus with 36 samples.

Results

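The cathepsins are proteases of the lysosome, and the mRNAs of 10 of them were followed here in the brains of mice that lack the lysosomal peptidase Tpp1. The 10 genes, Ctsa, Ctsb, Ctsc, Ctsd, Ctsh, Ctsk, Ctsl, Ctso, Ctss and Ctsz, were taken by name from the gene tables, and all 10 were found among the 53274 genes that the annotations of the 3 ages share. All 10 also passed the filter on low counts at every age. Tpp1 was disrupted by gene targeting in the Tpp1-/- mice, which model classical late infantile neuronal ceroid lipofuscinosis, a lysosomal storage disease of childhood. RNA of forebrain/midbrain (F/M) and of cerebellum (Cb) was sequenced at 1, 2 and 3 months from Tpp1-/- mice and from unaffected siblings as controls, with 3 libraries in each of 12 groups and 36 in all. The controls were wild type, except that control 3 of 1 month was Tpp1+/- in each region. At 1 month each group held 1 female and 2 males, at 2 months all mice were males, and at 3 months each group held 2 males and 1 female. The disruption affects every cell of the animal and the RNA came from whole pieces of brain, so a change in the number of cells of a type and a change in RNA per cell cannot be told apart.

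Cathepsins are made as inactive precursors, reach the lysosome mainly by mannose 6-phosphate receptors and are activated there at acid pH. Most are cysteine proteases of the papain family. Ctsb, Ctsl and Ctss can act as endopeptidases, Ctsh as an aminopeptidase, Ctsc as a dipeptidyl peptidase that activates granule serine proteases, and Ctsz as a carboxypeptidase, while Ctsk is the collagen-degrading protease of osteoclasts and Ctso is less studied. Ctsd is an aspartic protease whose loss causes another neuronal ceroid lipofuscinosis, and Ctsa is a serine carboxypeptidase that also protects beta-galactosidase and neuraminidase. In brain, Ctsb, Ctsd and Ctsl are made by neurons and glia alike, whereas Ctss is made mostly by microglia and trims the invariant chain of MHC class II.

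The starts of these genes differ in the letters known from a pair of control routes. One is the E-box CACGTG within the element that TFEB and its relatives bind in lysosomal genes, and the other is GAGGAA, the core of sites of PU.1, the macrophage transcription factor. RefSeq promoter entries on GRCm38.p6, which run from 250 bases before to 50 bases after a start, matched 8 of the 10 genes with 9 entries, and both strands were searched. Ctsb and Ctsh had no entry. The PU.1 core lay in the entries of Ctss, Ctsc and Ctsk, and the E-box in those of Ctsd and Ctsl and in 1 of the entries of Ctsa. Among all 32851 promoters of that length, 28.3% held the PU.1 core and 7.15% the E-box. The 250 bases before the start are shown for Ctss and Ctsc, whose mRNA was called higher in Tpp1-/- mice at 3 months, with the PU.1 core or its reverse complement TTCCTC in capitals. For Ctsd, also called, only short stretches around each E-box are shown, with the E-box in capitals, since its window lies partly within an exon of another Ctsd transcript. The core lay 164 bases before the Ctss start, with a second match, TTCCTC, that begins at the start itself, just after the bases shown. It lay 196 and 149 bases before the start of Ctsc. The E-boxes of Ctsd lay 245 and 98 bases before its start. The Ctss sequence is chr3:95526536-95526785 and that of Ctsc is chr7:88277835-88278084, both on the plus strand, and those of Ctsd are chr7:142388055-142388077 and chr7:142387908-142387937 on the minus strand. A match describes the letters and is not a binding site.
Ctss: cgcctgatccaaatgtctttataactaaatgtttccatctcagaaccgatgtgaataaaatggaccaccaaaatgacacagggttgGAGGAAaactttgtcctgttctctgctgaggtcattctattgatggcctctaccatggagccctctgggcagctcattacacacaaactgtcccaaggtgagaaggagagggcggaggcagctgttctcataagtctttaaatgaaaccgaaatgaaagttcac
Ctsc: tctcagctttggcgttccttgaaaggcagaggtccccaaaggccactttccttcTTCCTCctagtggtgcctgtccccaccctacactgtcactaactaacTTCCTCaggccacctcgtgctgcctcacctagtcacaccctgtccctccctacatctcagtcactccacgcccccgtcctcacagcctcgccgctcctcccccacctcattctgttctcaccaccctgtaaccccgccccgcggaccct
Ctsd, E-box farther from the start: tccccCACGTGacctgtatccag
Ctsd, E-box nearer to the start: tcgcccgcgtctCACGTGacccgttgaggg

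On GRCm38, Ctss lies at chr3:95526786-95556403 on the plus strand, 17423 bases downstream of Ctsk at chr3:95499256-95509362. Ctsc lies at chr7:88278085-88310888 (plus), Ctsd at chr7:142375911-142388038 (minus), Ctsh at chr9:90054152-90076089 (plus), Ctsz at chr2:174427493-174439039 (minus) and Ctsa at chr2:164832873-164841032 (plus). Ctsb lies at chr14:63122462-63145923 (plus), Ctsl at chr13:64359337-64370890 (minus) and Ctso at chr3:81932601-81956725 (plus). Reads were counted over the exons of each gene. Of the exon bases of Ctsd, 34.4% (808 bases) also belong to another annotated gene on the same strand, which was listed at 0 counts in every library, and reads that fall there may not have been counted for Ctsd.

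The libraries held between 10609896 and 29942380 counted reads, and each of the 10 genes had at least 30 counts in each library, from a low of 30 for Ctsk to a high of 20221 for Ctsb. Levels are given in CPM, that is, counts scaled to the size of the library, after TMM normalization, which also adjusts for composition. Tpp1 itself was at 0.230 to 0.403 of the control level in the 6 comparisons of Tpp1-/- with control (edgeR quasi-likelihood test, adjusted p from 1.13e-13 to 0.000705), and the Tpp1+/- controls of 1 month had lower levels than the wild-type controls of that age (46.6 CPM for F/M and 55.9 CPM for Cb, against 69.7 to 89.5 CPM). Summed cerebellar markers reached 6410 to 8150 CPM in Cb and 88.0 to 139 CPM in F/M, and summed forebrain markers 119 to 177 CPM in Cb and 554 to 689 CPM in F/M. Library 1 of the Tpp1-/- Cb group at 3 months stood apart from libraries 2 and 3 of its group. Its summed choroid plexus markers were 1760 CPM against 862 and 894, its midbrain and thalamus markers 514 against 345 and 374, its blood leukocyte markers 17.1 against 2.12 and 3.66, and its microglia markers 481 against 322 and 354. Of the 10 cathepsins, 9 were highest in that library within the group, so the calls and fold changes in Cb at 3 months are given with and without it. Library 3 of the control Cb group at 3 months also stood apart, with choroid plexus markers at 1570 CPM against 995 and 1040, midbrain and thalamus markers at 482 against 401 and 398, and oligodendrocyte markers at 5080 against 6380 and 6370, and it was the lowest control for Ctss, Ctsc and Ctsh. This library was the only female of its group. At 1 month, library 1 of Tpp1-/- Cb differed more from libraries 2 and 3 than these did from each other, and its midbrain and thalamus markers were 642 CPM against 502 and 430. It too was the only female of its group, and the part of sex in these values was not tested.

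**Figure D1:**
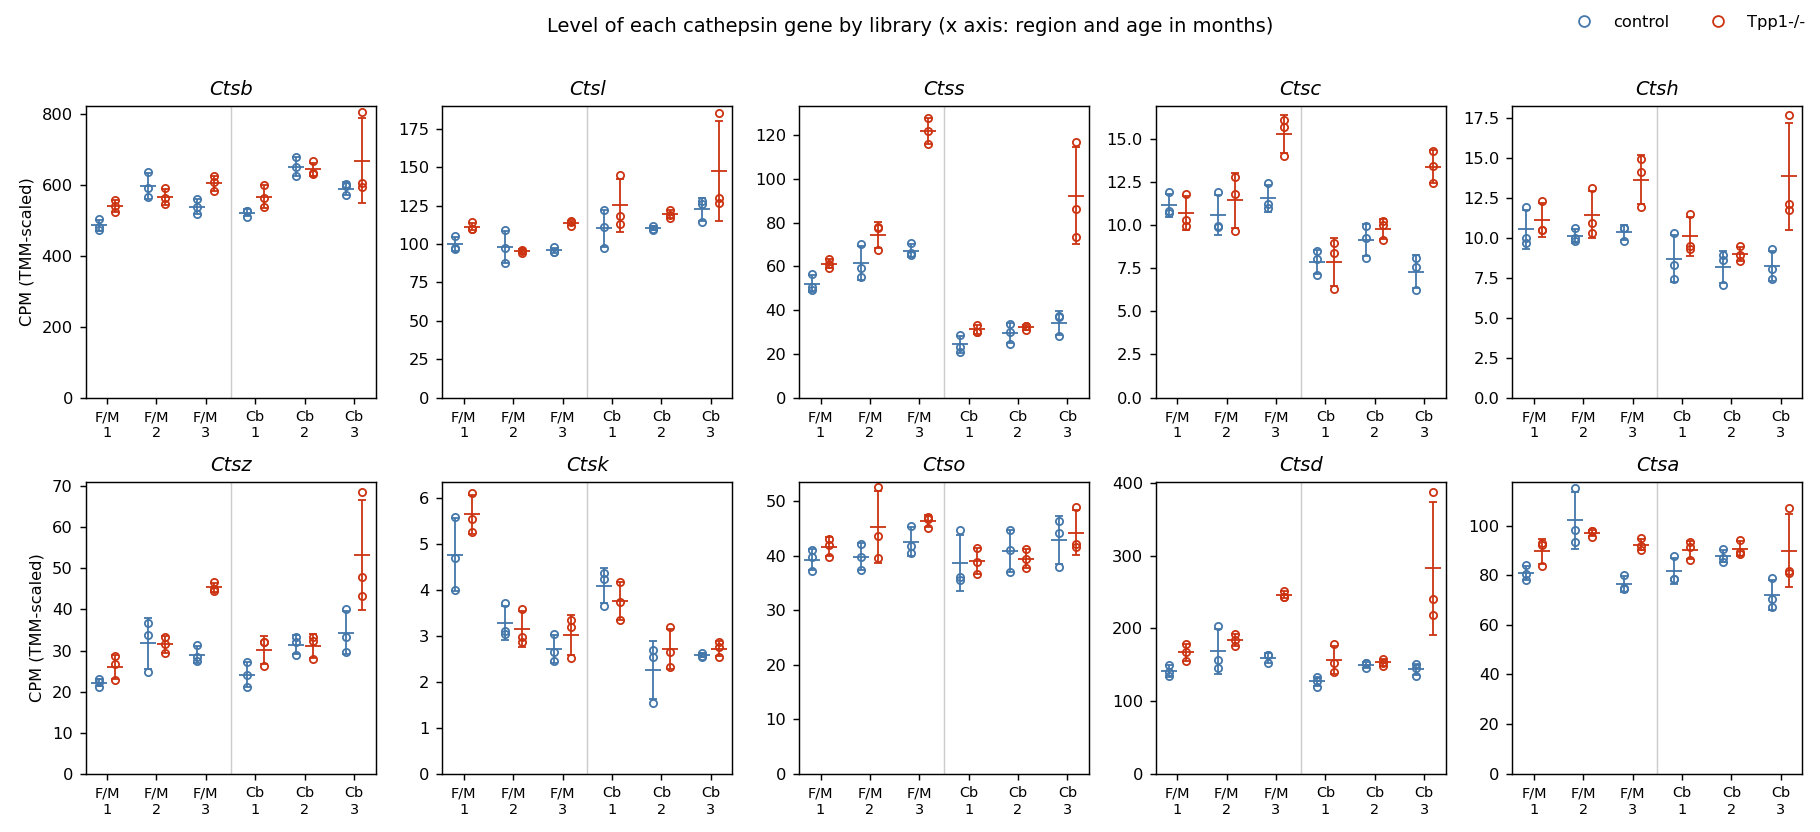
Level of each of the 10 genes (CPM after TMM scaling, y axis) in the 36 libraries, by region and by age in months; points are libraries, with the mean and SD of each group (n = 3). At 3 months the Ctss points of Tpp1-/- F/M lie at 116 to 128 CPM against 65.3 to 70.5 CPM in control F/M, and 1 library of Tpp1-/- Cb is high for most of the genes.

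In control brain the cathepsins spanned a wide range of levels. Scaled to exon length, so that genes can be set against each other, Ctsb was the most abundant in each control group, at 80.4 to 98.7 CPM per kilobase in F/M and 86.2 to 108 CPM per kilobase in Cb. Ctsd was second, with means of 60.0 to 71.5 CPM per kilobase in F/M and 54.2 to 63.7 in Cb. Ctss was the third in F/M, at 38.4 ± 2.91, 45.4 ± 5.72 and 49.5 ± 2.10 CPM per kilobase (SD, n = 3) at 1, 2 and 3 months, and its libraries did not overlap those of the genes next to it in the order. In Cb the Ctss level was 17.9 ± 2.98, 21.7 ± 3.39 and 25.1 ± 3.91 CPM per kilobase, within a middle group with Ctsa, Ctsl and Ctsz. There its libraries overlapped those of Ctsa, Ctsl and Ctsz at 1 month, of Ctsz and Ctsa at 2 months and of Ctsz at 3 months. Ctsa, Ctsl and Ctsz had control means of 14.8 to 23.8 CPM per kilobase. Ctso stood apart below them, at 7.56 to 8.35 CPM per kilobase, and Ctsh, Ctsk and Ctsc were the least abundant, at 1.26 to 3.15. If the bases shared with other genes on the same strand are left out of the exon length, a choice made after seeing the data, Ctsd came first in control F/M at each age, at 91.4, 109 and 103 CPM per kilobase, ahead of Ctsb at 80.4, 98.7 and 89.2. In control Cb, Ctsb was first on both lengths, with Ctsd at 82.5, 97.1 and 93.2 CPM per kilobase on the shorter one.

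Regions were compared within the controls to see which cathepsins differ between F/M and Cb without disease. Ctss was the gene called at each age, meaning an adjusted p under 0.1 and a fold of at least 1.5. It was lower in Cb, with a log2 difference of -1.10 ± 0.11 (SE) at 1 month, -1.06 ± 0.10 at 2 months and -0.98 ± 0.15 at 3 months (edgeR, adjusted p = 4.97e-07, 3.98e-08 and 9.72e-05), which puts Cb at 0.465, 0.480 and 0.507 of the F/M level. At 3 months the control levels of Ctss were 70.5, 65.3 and 65.9 CPM for F/M against 37.3, 37.0 and 28.0 CPM for Cb, with no overlap. Ctsc was called at 3 months only, with 11, 12.4 and 11.2 CPM for F/M against 7.56, 8.07 and 6.24 CPM for Cb (log2 difference -0.66 ± 0.13, adjusted p = 0.000530). At 1 month its log2 difference was -0.51 ± 0.14 (adjusted p = 0.00651), under the minimum fold, and at 2 months -0.21 ± 0.12 (adjusted p = 0.127).

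Thus 1, 1 and 2 of the 10 genes were called between the regions at 1, 2 and 3 months. Of all genes tested, 36.9%, 39.3% and 37.7% were called at these ages, so the share of the cathepsins lay under the background. Leaving out control Cb library 3 ended the Ctsc call at 3 months, since its fold then fell under 1.5. At 2 months Ctsk, the osteoclast collagenase, was at 0.681 of its F/M level in Cb (adjusted p = 0.0241), also under the minimum fold. At 3 months Ctsl was 1.28-fold higher in Cb (adjusted p = 0.0275). The summed microglia markers were 421 to 538 CPM in control F/M and 141 to 188 CPM in control Cb, lower in Cb as Ctss was, and their part in the result was not tested.

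At 1 month, the youngest age, none of the 10 genes was called between Tpp1-/- and control in F/M or Cb by edgeR, DESeq2 or limma-voom, and the background was 0.0112% in F/M and 0.0112% in Cb. At an unadjusted p under 0.05, 3 of 10 passed in F/M (Ctsb, Ctsd and Ctss) and 3 of 10 in Cb (Ctsd, Ctss and Ctsz), each with a higher mean in Tpp1-/-, and 0.904% and 4.31% of all genes passed with a higher value. The aspartic protease Ctsd had 134, 150 and 140 CPM in control F/M and 155, 167 and 179 CPM in Tpp1-/- F/M. In Cb it had 128, 133 and 120 CPM in controls and 178, 153 and 140 CPM in Tpp1-/-. In both regions each Tpp1-/- library exceeded each control, with log2 fold changes of 0.24 ± 0.09 in F/M and 0.30 ± 0.09 in Cb (adjusted p = 1.0 and 0.630). Ctss had 23.0, 28.8 and 21.0 CPM in control Cb and 33.4, 30.1 and 29.9 CPM in Tpp1-/- Cb, again without overlap (log2 fold change 0.36 ± 0.11, adjusted p = 0.630). Every Tpp1-/- library lay above every control library for 4 of 10 genes in F/M and 3 of 10 in Cb, against 8.31% and 4.26% of all genes tested. The median log2 fold change of the 10 was 0.16 in F/M and 0.17 in Cb, beside -0.004 and 0.006 over all genes tested. No marker list had a called gene at this age. Choroid plexus markers were higher in Tpp1-/- Cb for 14 of 14 genes (median log2 fold change 0.62, 6 at an unadjusted p under 0.05), with a summed level of 940 to 1390 CPM against 284 to 986 CPM in control Cb. Microglia markers were higher for 17 of 20 genes in each region, with 4 (F/M) and 6 (Cb) at an unadjusted p under 0.05, and their sums were 462 to 498 CPM in Tpp1-/- F/M against 421 to 463, and 179 to 192 CPM in Tpp1-/- Cb against 141 to 173. Cerebellum markers had a median of -0.75 in F/M. Without Tpp1-/- Cb library 1, the same 3 cathepsins passed in Cb at an unadjusted p under 0.05, beside 7.75% of all genes in either direction. The median of the 10 was then 0.09, and 12 of 14 choroid plexus markers passed. Their part in the cathepsin values was not tested.

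At 2 months none of the 10 was called in either region by edgeR, DESeq2 or limma-voom, while 0.737% of all genes tested were called in F/M and 2.05% in Cb. At an unadjusted p under 0.05, 1 of 10 passed in F/M and 0 in Cb, while 9.61% and 2.85% of all genes passed with a higher value, so the F/M count was near the background. The gene was Ctss, with 55.3, 70.3 and 59.3 CPM in control F/M and 78.0, 67.4 and 77.4 CPM in Tpp1-/- F/M. Of the controls, 1 library lay within the Tpp1-/- range, and the log2 fold change was 0.27 ± 0.10 (adjusted p = 0.182). The log2 fold changes of the 10 spanned -0.07 to 0.27 in F/M, and -0.06 to 0.27 in Cb, with medians of 0.06 and 0.08 beside 0.004 and 0.0 over all genes. Tpp1-/- libraries lay wholly above the controls for 0 of 10 genes in F/M and 1 of 10 in Cb, Ctsl, against 9.46% and 7.65% of all genes. Choroid plexus markers differed between the genotypes at this age, with 10 of 14 called higher in Tpp1-/- F/M and 8 of 14 in Tpp1-/- Cb. Of 12 midbrain and thalamus markers 2 were called higher in Tpp1-/- F/M and 4 lower in Tpp1-/- Cb, and of 4 tested blood leukocyte markers 3 were called lower in Tpp1-/- Cb. The forebrain marker Lhx2 was called lower in Tpp1-/- Cb. In F/M, 4 of 8 astrocyte markers (all 8 higher, median log2 fold change 0.30) and 3 of 8 cerebellum markers were higher at an adjusted p under 0.1 but under the minimum fold, and 18 of 20 microglia markers were higher with 0 passing. Also under the minimum fold, 1 of 8 neuron and 1 of 8 forebrain markers were lower in F/M, and 1 of 6 border macrophage markers was higher. In Cb 1 of 8 oligodendrocyte markers was lower by the same rule, with all 8 lower in mean and a median of -0.2. Their part in the cathepsin values was not tested.

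**Figure D2:**
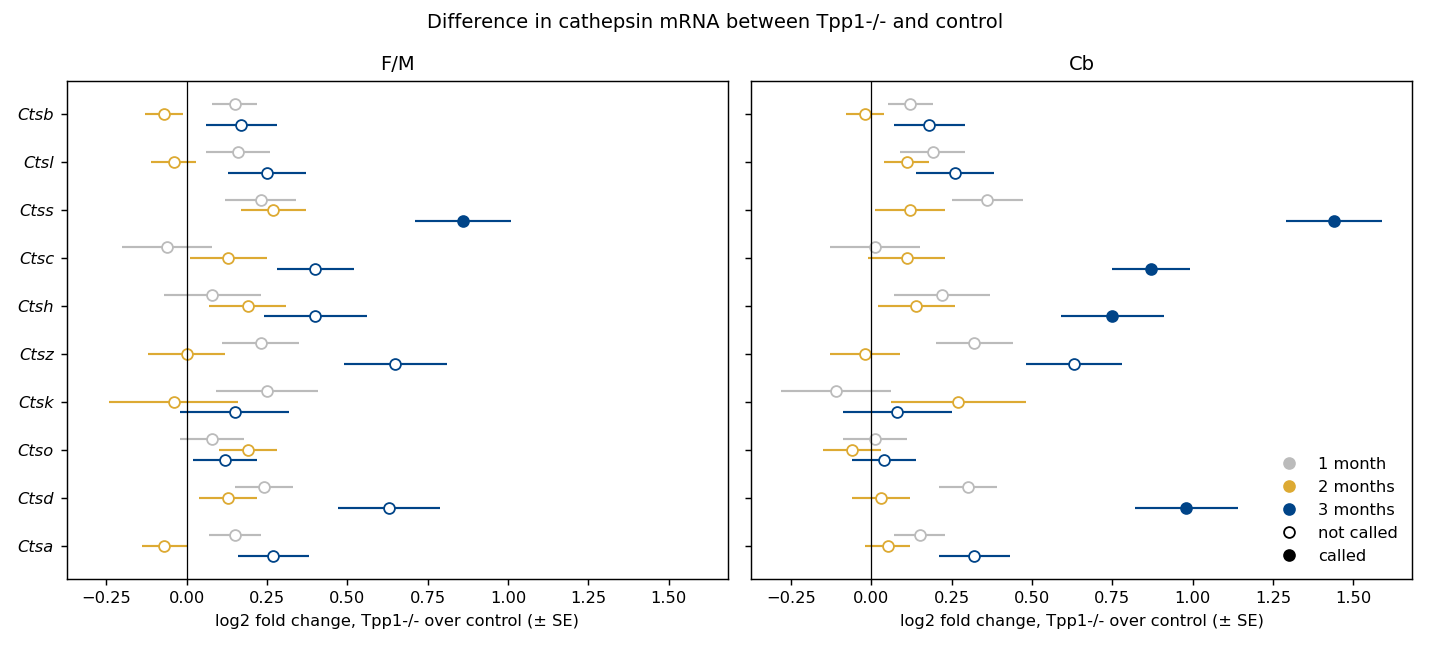
Log2 fold change of Tpp1-/- over control for each of the 10 genes in F/M (left) and Cb (right) at 1, 2 and 3 months, with SE bars from the edgeR fit; filled points are called. The filled points are all of 3 months: Ctss in F/M and Ctsc, Ctsd, Ctsh and Ctss in Cb.

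At 3 months, in F/M, the mRNA of Ctss rose in Tpp1-/- mice and that of the other 9 genes did not pass the test, although all 10 had a higher mean than in controls. Ctss had 70.5, 65.3 and 65.9 CPM in controls and 122, 128 and 116 CPM in Tpp1-/- mice. The groups were far apart, and the rise was 1.82-fold (log2 fold change 0.86 ± 0.15, adjusted p = 0.0223, edgeR). Of all genes tested, 0.464% were called in this comparison, against 1 of the 10 cathepsins. The Ctss call ended (adjusted p from 0.104 to 0.164) when any 1 of 5 of the 6 F/M libraries was left out, the exception being Tpp1-/- library 3, while its log2 fold change lay between 0.82 and 0.89.

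Ctsd and Ctsz came next in F/M. Ctsd had 163, 164 and 152 CPM in controls and 244, 244 and 252 CPM in Tpp1-/- mice, a 1.55-fold difference (log2 fold change 0.63 ± 0.16, adjusted p = 0.210). Ctsz, the carboxypeptidase, had 28.3, 31.3 and 27.4 CPM in controls and 44.5, 46.6 and 45.0 CPM in Tpp1-/- mice, a 1.56-fold difference (log2 fold change 0.65 ± 0.16, adjusted p = 0.152). Neither gene's groups overlapped. The spread in this fit was shared with the Cb libraries, and with Cb Tpp1-/- library 1 taken out, a choice made after seeing the data, 3 of the 10 were called in F/M: Ctsd (adjusted p = 0.000134), Ctss (adjusted p = 0.000621) and Ctsz (adjusted p = 0.00480), where 0.883% of all genes were called. With the 6 F/M libraries alone the same 3 genes were called, beside 1.9% of all genes, and DESeq2 on all libraries of the age also called them, with adjusted p of 0.0428, 6.26e-05 and 0.0269 for Ctsd, Ctss and Ctsz. The share of all genes that DESeq2 called is not given here, so its count is not set against a background.

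The remaining F/M values were smaller. Ctsc had 11, 12.4 and 11.2 CPM in controls and 16.1, 15.7 and 14 CPM in Tpp1-/- mice (log2 fold change 0.40 ± 0.12, adjusted p = 0.353). Ctsh had 9.79, 10.6 and 10.6 CPM in controls and 14.9, 14.1 and 11.9 CPM in Tpp1-/- mice (log2 fold change 0.40 ± 0.16, adjusted p = 0.721). Ctsa, Ctsb and Ctsl had log2 fold changes of 0.27, 0.17 and 0.25, and Ctsk and Ctso of 0.15 and 0.12. In 8 of the 10 genes, all but Ctsk and Ctso, every Tpp1-/- library lay above every control library, against 11.8% of all genes tested. The median log2 fold change of the 10 was 0.34, beside -0.003 over all genes.

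In Cb at 3 months 4 of the 10 genes rose, namely Ctss, Ctsd, Ctsc and Ctsh, against 0.859% of all genes tested called. Ctss had 37.3, 37.0 and 28.0 CPM in controls and 117, 73.6 and 86.4 CPM in Tpp1-/- mice, a 2.71-fold rise (log2 fold change 1.44 ± 0.15, adjusted p = 0.000219). Ctsd had 135, 145 and 151 CPM in controls and 388, 219 and 241 CPM in Tpp1-/- mice, a 1.97-fold rise (log2 fold change 0.98 ± 0.16, adjusted p = 0.0103). Neither gene's groups overlapped, and library 1 was the highest in both. Ctsc, the dipeptidyl peptidase, had 7.56, 8.07 and 6.24 CPM in controls and 13.4, 12.4 and 14.3 CPM in Tpp1-/- mice, a 1.83-fold rise (log2 fold change 0.87 ± 0.12, adjusted p = 0.00281), and here library 1 lay between the other two. Ctsh, the aminopeptidase, had 9.28, 8.03 and 7.42 CPM in controls and 17.7, 12.1 and 11.7 CPM in Tpp1-/- mice, a 1.68-fold rise (log2 fold change 0.75 ± 0.16, adjusted p = 0.0513).

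Without Cb Tpp1-/- library 1, 3 of the 10 were called. Ctss rose 2.35-fold (log2 fold change 1.23 ± 0.11, adjusted p = 3.72e-05), Ctsc 1.83-fold (0.87 ± 0.13, adjusted p = 0.00310) and Ctsd 1.6-fold (0.68 ± 0.07, adjusted p = 0.000113). Ctsh was then 1.45-fold higher (0.53 ± 0.12, adjusted p = 0.0565), under the minimum fold. Its call also ended without control library 2 (adjusted p = 0.219) or control library 3 (adjusted p = 0.142). Without control library 3 Ctsh was still 1.6-fold higher (0.68 ± 0.18). With only the 6 Cb libraries in the fit, 1 of the 10 was called, Ctss (adjusted p = 0.0297), beside 0.282% of all genes, while Ctsc, Ctsd and Ctsh had log2 fold changes of 0.88, 0.98 and 0.75 (adjusted p = 0.130, 0.241 and 0.498). Without control Cb library 3, Ctss, Ctsc, Ctsd and Ctsz were called, at 2.48-, 1.71-, 2.02- and 1.69-fold, beside 1.13% of all genes.

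The other 6 genes did not pass in Cb. Ctsz had 33.4, 29.7 and 40.0 CPM in controls and 68.6, 43.2 and 48.0 CPM in Tpp1-/- mice, without overlap (log2 fold change 0.63 ± 0.15, adjusted p = 0.107), and DESeq2 (adjusted p = 0.0137), the fit with no filter on low counts (adjusted p = 0.000122) and the fit with RLE size factors called it. Without library 1 its log2 fold change was 0.41 ± 0.11 (adjusted p = 0.0862), under the minimum fold. Ctsa had a log2 fold change of 0.32 ± 0.11 (adjusted p = 0.467). Ctsb and Ctsl had 0.18 ± 0.11 and 0.26 ± 0.12, and 0.03 and 0.07 without library 1. Ctsk and Ctso had 0.08 ± 0.17 and 0.04 ± 0.10, and Ctso had -0.03 without library 1. For 6 of the 10 genes every Tpp1-/- library lay above every control library, against 4.46% of all genes tested, and the median log2 fold change of the 10 was 0.48, beside -0.003 over all genes. Without library 1 the median was 0.29, and 1.17% of all genes were called.

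**Figure D3:**
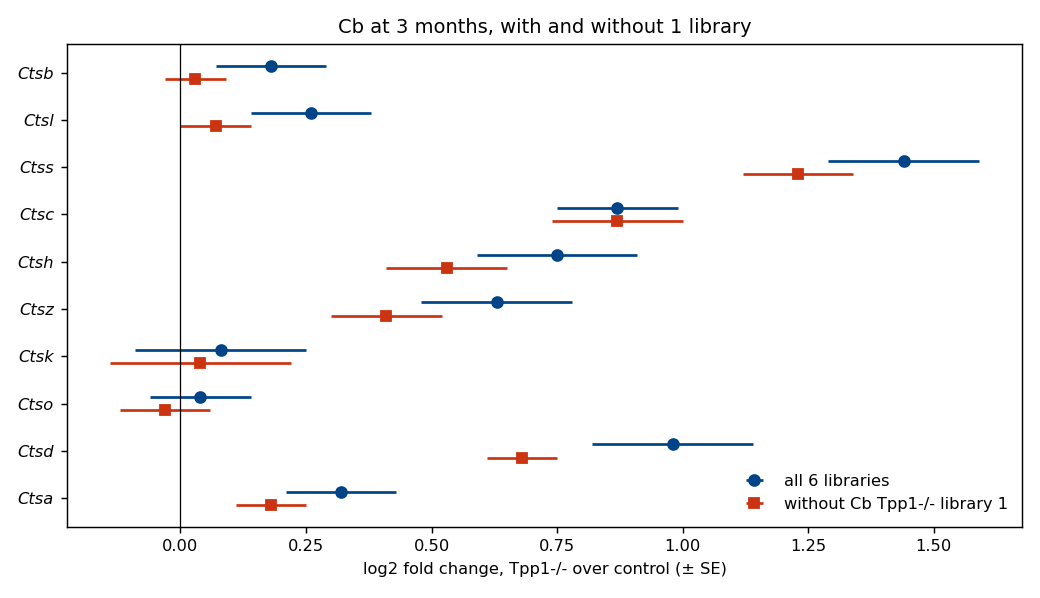
Log2 fold change of Tpp1-/- over control in Cb at 3 months for each of the 10 genes, with SE bars, with every library of the age in the fit (circles) and without Cb Tpp1-/- library 1 (squares). Ctsc stays at 0.87, Ctss moves from 1.44 to 1.23, Ctsd from 0.98 to 0.68 and Ctsh from 0.75 to 0.53.

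Some microglia markers rose beside these genes. In F/M at 3 months 5 of 20 were called higher in Tpp1-/- mice (Cd68, Tyrobp, Ptprc, Ly86 and Fcrls), and in Cb 11 of 20 were, among them Cd68, the lysosomal membrane protein of macrophages, with 4.13-fold, and the complement gene C1qa with 3.90-fold. Their median log2 fold change was 0.40 in F/M and 1.10 in Cb. Without Cb Tpp1-/- library 1, 12 of 20 were called in Cb with a median of 0.98, Cd68 with 3.56-fold and C1qa with 3.03-fold. The summed level of the 20 markers was 469 to 500 CPM in control F/M and 608 to 661 CPM in Tpp1-/- F/M, and 159 to 184 CPM in control Cb and 322 to 481 CPM in Tpp1-/- Cb. None of the 20 was at 0 in any group. P2ry12 and Tmem119, which mark resting microglia, were picked from the 20 after their values were seen and do not stand for the list. They had log2 fold changes of -0.18 (the lowest of the 20) and -0.09 in F/M and 0.16 and 0.19 in Cb, and neither passed. Without Cb Tpp1-/- library 1, Fcrls and Cx3cr1 of the same list were called higher in Cb, with log2 fold changes of 1.75 and 0.63. The part of the microglia markers in the cathepsin results was not tested. Of 8 astrocyte markers 1 was called in each region, the filament gene Gfap, with 2.66-fold in F/M and 3.40-fold in Cb (3.08-fold without library 1). No marker of border macrophages, blood leukocytes, oligodendrocytes, neurons, endothelium, choroid plexus, midbrain and thalamus, forebrain or cerebellum was called at 3 months by edgeR, but without library 1 the blood leukocyte marker S100a8 was called lower in Cb, and without control Cb library 3 the midbrain markers Slc18a2, Slc6a4 and Tph2 were. These counts without a library were chosen after seeing the data. At an unadjusted p under 0.05, 3 of 7 border macrophage markers passed in Cb and 0 in F/M, with a median log2 fold change of 0.49 in Cb and summed levels of 12.9 to 14.7 CPM in Tpp1-/- Cb against 9.86 to 10.6 CPM in control Cb. By the same measure 1 and 4 of 12 midbrain and thalamus markers and 0 and 3 of 8 forebrain markers passed in F/M and Cb. So did 2 and 0 of 8 cerebellum markers, 1 and 1 of 8 oligodendrocyte markers and 0 and 1 of 8 neuron markers. Of 8 astrocyte markers 1 and 3 passed, and no endothelial, choroid plexus or blood leukocyte marker did. All 8 oligodendrocyte markers had a lower mean in Tpp1-/- mice in both regions, with medians of -0.18 and -0.17. Without Cb Tpp1-/- library 1, 6 of 8 oligodendrocyte markers (all lower, median -0.30), 4 of 8 neuron, 4 of 14 choroid plexus, 3 of 12 midbrain and thalamus, 4 of 8 forebrain, 4 of 7 border macrophage and 2 of 4 blood leukocyte markers passed in Cb, as did 15.7% of all genes. In the same fit 4 of 8 astrocyte markers passed, 3 of them higher, and 1 of 8 endothelial markers passed. Without control Cb library 3, 4 of 8 oligodendrocyte markers (all lower, median -0.25), 4 of 8 forebrain markers (all lower, median -0.69), 5 of 12 midbrain and thalamus markers (4 of them lower), 4 of 7 border macrophage markers (all higher) and 1 each of the neuron, endothelial and choroid plexus markers passed, as did 9.39% of all genes. There 2 of 8 astrocyte markers also passed, as higher. The part of these lists in the cathepsin values was not tested.

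The effect of genotype was then compared between the regions by an interaction term. No cathepsin differed at any age by edgeR, DESeq2 or limma-voom (adjusted p under 0.1), while 0.0%, 2.97% and 0.00581% of all genes tested did at 1, 2 and 3 months. At an unadjusted p under 0.05, 0, 0 and 2 of the 10 passed, and 1.94%, 11.5% and 3.51% of all genes. The 2 were Ctss and Ctsc at 3 months, with log2 fold changes larger in Cb than in F/M by 0.57 ± 0.21 and 0.47 ± 0.17 (unadjusted p = 0.0174 and 0.0168, adjusted p = 1.0 for both). Without Cb Tpp1-/- library 1 these were 0.36 ± 0.15 and 0.47 ± 0.17, and 6.56% of all genes passed at an unadjusted p under 0.05. For Ctsd and Ctsh the difference was 0.35 ± 0.23 each, and without that library it was 0.05 ± 0.09 and 0.13 ± 0.17. For Ctsz it was -0.01 ± 0.22, and -0.24 ± 0.15 without the library.

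The effect was also compared between ages in a model of all 36 libraries, in which the comparisons of 3 with 1 month and of 3 with 2 months share the 3-month libraries. In Cb the effect on Ctss and Ctsc was larger at 3 months than at 1 month, by 1.08 ± 0.19 and 0.86 ± 0.18 on the log2 scale (adjusted p = 0.00347 and 0.0189), and 0.458% of all genes differed. Against 2 months the effect was larger for Ctss by 1.32 ± 0.19 (adjusted p = 3.99e-05), for Ctsd by 0.94 ± 0.18 (adjusted p = 0.00259) and for Ctsc by 0.77 ± 0.18 (adjusted p = 0.0181), where 1.44% of all genes differed. Without Cb Tpp1-/- library 1 of 3 months, these differences were 0.86 (Ctss) and 0.85 (Ctsc) against 1 month, and 1.11 (Ctss), 0.64 (Ctsd) and 0.76 (Ctsc) against 2 months, with adjusted p from 0.000125 to 0.0361. In F/M none of the 10 differed in either comparison by edgeR, DESeq2 or limma-voom, beside 0.153% and 0.393% of all genes, and 4 and 5 of the 10 passed at an unadjusted p under 0.05, as did 5.41% and 8.12% of all genes. The F/M differences of Ctss were 0.64 ± 0.19 against 1 month (adjusted p = 0.376) and 0.60 ± 0.19 against 2 months (adjusted p = 0.256). The gene tables of the ages were made with different annotation releases and strand settings, and Tpp1, whose disruption is the same at all ages, also differed in this model. Its difference was 0.73 ± 0.18 (adjusted p = 0.0721) against 1 month and 0.75 ± 0.18 (adjusted p = 0.0223) against 2 months in Cb, and 0.58 ± 0.18 (adjusted p = 0.564) and 0.79 ± 0.18 (adjusted p = 0.0648) in F/M.

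With these changes the make-up of the cathepsin mRNA shifted at 3 months. The summed level of the 10 genes per kilobase was 272 ± 7.94 CPM per kilobase (SD, n = 3) in control F/M and 380 ± 4.85 in Tpp1-/- F/M, and 255 ± 3.60 in control Cb and 393 ± 94.0 in Tpp1-/- Cb, where the libraries ranged from 327 to 501. Ctsb made up 32.8% ± 0.451 of the sum in control F/M and 26.3% ± 0.783 in Tpp1-/- F/M, and 38.3% ± 0.598 in control Cb and 28.4% ± 1.71 in Tpp1-/- Cb. The share of Ctss was 18.2% ± 0.879 and 23.7% ± 1.09 in F/M, and 9.86% ± 1.63 and 17.3% ± 0.753 in Cb. That of Ctsd was 24.9% ± 0.349 and 27.6% ± 0.577 in F/M, and 24.0% ± 1.29 and 30.2% ± 2.40 in Cb. In each case the control and Tpp1-/- libraries did not overlap, library 1 included or not. In libraries 2 and 3 of Tpp1-/- Cb the summed level was 327 and 352 CPM per kilobase. Ctsd stood first in Tpp1-/- F/M of 3 months, at 105 ± 1.89 CPM per kilobase, where its libraries lay above those of Ctsb. In Tpp1-/- Cb the means were 120 ± 39.1 for Ctsd and 111 ± 19.7 for Ctsb, with overlap, and this order rested on library 1 (165 against 133 CPM per kilobase), since Ctsd was at 93.3 and 103 in libraries 2 and 3 and below Ctsb in library 2 (98.2). That holds on the full exon length, since on the unshared length Ctsd was at 252, 142 and 156 CPM per kilobase in the 3 libraries and above Ctsb in each.

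**Figure D4:**
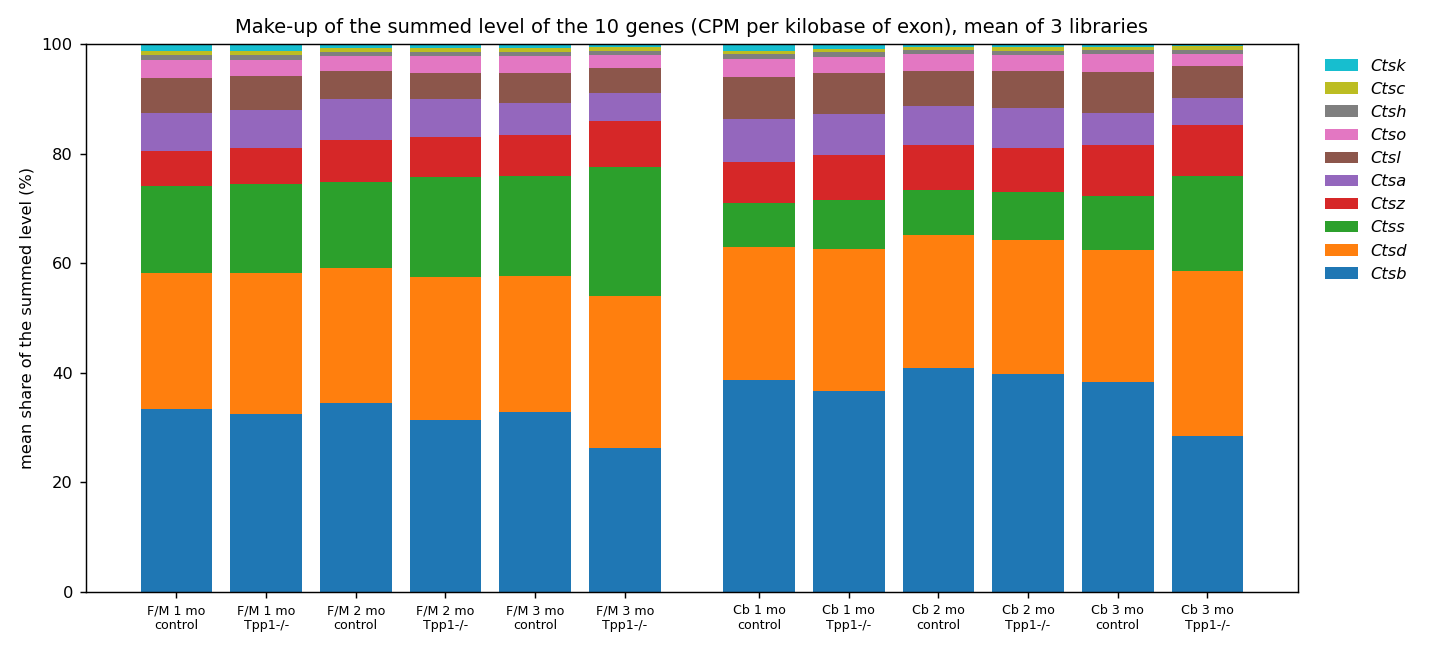
Mean share (%) of each of the 10 genes in their summed level (CPM per kilobase of exon) in the 12 groups, as stacked bars, means of 3 libraries. The Ctss segment is 18.2% and 23.7% in control and Tpp1-/- F/M at 3 months, and 9.86% and 17.3% in Cb.

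Other genes of the pathway were read from lists chosen with earlier results of these data known. Of 5 tested cathepsin inhibitors 1 was called at 3 months in each region, Cst7 (cystatin F), which inhibits cathepsins inside the lysosomes of immune cells. It had 3, 0 and 4 counts in control F/M and 71, 65 and 63 in Tpp1-/- F/M, and 1, 4 and 2 counts in control Cb and 125, 74 and 85 in Tpp1-/- Cb (adjusted p = 8.62e-05 and 1.56e-05). Cst3, the abundant secreted cystatin C, had log2 fold changes of -0.03 ± 0.20 in F/M and 0.19 ± 0.20 in Cb. In Cb it had 324, 349 and 375 CPM in controls and 592, 292 and 316 CPM in Tpp1-/- mice, so library 1 lay above every control and both other libraries below. Without library 1 its log2 fold change was -0.20 ± 0.08 (adjusted p = 0.247). Of 6 partners of cathepsin A and saposins 1 was called in each region, the lysosomal growth factor gene Grn, with 1.68-fold in F/M and 1.6-fold in Cb (adjusted p = 0.00909 and 0.0122), and without Cb library 1 it was 1.49-fold higher in Cb, under the minimum fold. Of the 16 genes for sorting and delivery of lysosomal enzymes, 0 were called at 3 months by edgeR, and 0 in each region had an unadjusted p under 0.05. Of 6 tested other lysosomal peptidases only Tpp1 was called, as lower, and neither of the 2 tested cathepsins outside the 10 was. Among 5 tested MiT/TFE factors, PU.1 and its partner, Irf8 was called in Cb, with a log2 fold change of 1.61 ± 0.18 (adjusted p = 0.000375; 1.52 without library 1), and it had 0.61 ± 0.17 in F/M (adjusted p = 0.244). Spi1, which encodes PU.1, had 0.10 ± 0.20 in F/M and 0.74 ± 0.22 in Cb (adjusted p = 0.326), and Tfeb had -0.29 ± 0.20 and 0.16 ± 0.18. Without library 1, Spi1 and Tfeb had 0.58 and 0.01 in Cb.

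Genes whose log2 fold changes lay closest to those of a called cathepsin over the 6 comparisons were sought among 16713 genes tested at all ages, by the root mean square difference. For Ctss the nearest were Il21r at 0.0644, Ly86 at 0.0778 and Myo1f at 0.133. For Ctsd they were Ptpn6 at 0.0909, Nckap1l at 0.128 and Dock2 at 0.133. For Ctsh they were Vav1 at 0.0664, Cd9 at 0.0749 and Hexa at 0.0831, and for Ctsc Cd33 at 0.109, A930040O22Rik at 0.111 and Cd9 at 0.112. Ly86, which encodes a partner of a Toll-like receptor relative, had log2 fold changes at 3 months of 0.93 (F/M) and 1.54 (Cb), beside 0.86 and 1.44 for Ctss. Hexa, the alpha subunit of the lysosomal beta-hexosaminidase, had 0.39 and 0.69, beside 0.40 and 0.75 for Ctsh.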

How the data were processed

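The members and the gene lists were chosen with earlier results of these data known. RNA was purified with TRIzol and columns, and stranded poly(A) libraries were sequenced. The deposited tables hold whole-number counts per gene, which the authors made with STAR and featureCounts on GRCm38, per the file headers with featureCounts 1.6.3 and GENCODE M21 at 1 month, 1.6.2 and M16 at 2 months, and 1.6.2 and M18 at 3 months, with strand setting 1, 2 and 1. The submitters' processing notes name STAR 2.5.2b. Each age was fitted by itself with its 12 libraries in edgeR 4.0.16 (R 4.3.3; TMM, filterByExpr, quasi-likelihood F test, two-sided, Benjamini-Hochberg over all 17916, 17229 or 17224 genes tested). Age comparisons used 1 model of 36 libraries and 18322 genes. Called means an adjusted p under 0.1 and, except for interaction and age terms, a fold of at least 1.5. DESeq2 1.42.0 and limma 3.58.1 (voom) were alternatives, and the scripts were tested on simulated data. The labels do not say whether replicates are littermates, so p-values measure the spread between these samples. Libraries of F/M and Cb with the same number deviated together at 1 month (correlations 0.101 to 0.26, each over 0.1), which did not hold for every pair at the other ages, and no set of control and Tpp1-/- libraries did. With the number as a block at 1 month no call between regions changed. No libraries were duplicates. Named genes are the 10 members, list genes called in the comparison described, the 3 genes closest in pattern to each member with an adjusted p under 0.1 at 3 months, and Tpp1. Spi1, Tfeb, Cst3, P2ry12 and Tmem119 were named after their values were seen. Promoter entries came from RefSeq. Protein sequences were not used here.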

Additional observations from a re-analysis of the deposited data

Results flagged for a closer look

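The difference in genotype effect between ages passed the test (adjusted p under 0.1, edgeR, 36 libraries) for 5 values in Cb. Against 1 month, the effect at 3 months was larger by 0.86 for Ctsc and 1.08 for Ctss on the log2 scale. Against 2 months it was larger by 0.77 for Ctsc, 0.94 for Ctsd and 1.32 for Ctss. These comparisons share the 3-month libraries. Each of the 5 passed in 17 of 17 alternatives, including those that left out a library of Cb. No alternative removed the differences in annotation release and strand setting between ages. In the same model Tpp1, whose disruption is the same at all ages, also differed in Cb, by 0.73 against 1 month and 0.75 against 2 months.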

How the results depend on the processing

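No called difference of the 10 genes changed its direction. Of those not called, 10 of 55 between genotypes and 6 of 26 between control regions changed sign in at least 1 alternative, all with a log2 difference of at most 0.07 in size. Without Cb Tpp1-/- library 1 (values chosen after seeing the data), the 3-month Cb log2 fold change went from 0.04 to -0.03 for Ctso and from 0.19 to -0.20 for Cst3. For Tpp1-/- against control in F/M at 3 months, 1 of the 10 genes was called, against 3 with DESeq2, 3 with no filter on low counts, 3 with only the 6 libraries compared and 3 with the spread estimated without Cb Tpp1-/- library 1 (chosen after seeing the data), and 0 to 1 with 1 replicate left out. In Cb at 3 months 4 were called, 1 with only the 6 libraries compared and 3 to 5 with 1 replicate left out. Of all genes tested, 0.464% (F/M) and 0.859% (Cb) were called in the main fit. Other counts in this paragraph for which no share of all genes is stated are not set against a background. Between control regions, the counts of 1, 1 and 2 at 1, 2 and 3 months became 2 and 6 at 1 and 2 months with no fold minimum, 2 at 2 months with limma-voom, and 1 to 2 at 2 and 3 months with 1 replicate left out. At an unadjusted p under 0.05 with no fold minimum, 2 and 5 of the 10 passed at 1 and 2 months. Of all genes 58.0% and 67.6% did, so these counts were not above the background. For the effect in F/M at 3 months against 1 and 2 months, 0 differed, against 1 and 3 with no filter. The share of Ctsd with the unshared exon length (chosen after seeing the data) was 33.5% and 36.6% in control and Tpp1-/- F/M and 32.3% and 39.6% in Cb. The cause of these moves was not tested, except that with no fold minimum genes under 1.5-fold are counted by construction. With the replicate number as a block, the 3-month calls numbered 1 for F/M and 4 for Cb, and the block changed no other count of calls by over 1.5 times. Same-numbered libraries correlated between -0.147 and 0.31 over all sets, and only the sets between regions at 1 month had every pair over 0.1. The labels give the same sex to the same number in all groups of an age. Low correlations cannot show that samples are unpaired, so pairing in the other sets was not settled. With 3 libraries a group, an exact permutation test could not go below p = 0.1.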
